A study of Mus musculus with 24 samples.

Results

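Microglia from DBA/2J retinas that the submitters labelled as mild disease (NOE) were compared with microglia from retinas of the control strain at the same age. The comparison holds 12 of the 24 retinas of the study and 7 of its 15 animals, chosen by the age, genotype and disease grade given for each retina. The mild group was 3 retinas of 2 DBA/2J mice aged 12 months with the genotype Gpnmb-/- Tyrp1b-/-. They were both eyes of animal 4 and the right eye of animal 5. The control group was 9 retinas of 5 DBA/2J Gpnmb+ mice aged 12 months with the genotype Gpnmb+/+ Tyrp1b-/-, so that both groups carry the Tyrp1b mutation and differ by label in Gpnmb. For reference, 4 retinas of 3 DBA/2J mice graded moderate and 3 retinas of 2 DBA/2J mice graded severe, all at 12 months and of the mild group's genotype, were also used. Another 5 retinas of 5 DBA/2J mice aged 6 months with that genotype entered the fit to help estimate the spread. They also help set the term for Y-linked reads described below. The left eye of animal 5 was graded moderate, so the mild and moderate groups share that mouse.

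DBA/2J is an inbred mouse strain in which iris disease raises the eye pressure with age and retinal ganglion cells die, a model of inherited glaucoma. Gpnmb encodes a membrane glycoprotein of pigment cells and activated macrophages, and mice of this background with a working copy are largely spared. Microglia are the resident macrophages of nervous tissue. In health they express genes such as P2ry12 and Tmem119. Near dying neurons they can lose these and gain Apoe, Clec7a, Axl and other genes of a state called MGnD, for neurodegenerative microglia, in which signalling through Trem2 and Apoe takes part.

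Cells were sorted from single retinas as CD11b+, Ly6c- and Fcrls+, with 100 to 600 cells per retina, and 1 RNA library was made from each. Library totals were 6200984, 1706775 and 12499993 counts in the mild retinas, against 977886 to 14845311 in the Gpnmb+ retinas. The mild retinas had 10703 to 12473 genes with a count and the Gpnmb+ retinas 3469 to 14468. Where both eyes of a mouse had 1 grade, their counts were summed, which gave 2 mild sums and 5 Gpnmb+ sums. The labels give the animals as separate mice. All n below are such sums, and with 2 of them the spread within the mild group is poorly known. Levels of a gene are in CPM, its count in each 1000000 counts, scaled per sum as described under the processing. A single gene ID, CT010467.1, held 25.1% and 20.4% of the counts in the mild sums and 21.6% to 39.8% in the Gpnmb+ sums. Such a level cannot tell fewer cells of a type from less RNA per cell. Most markers fixed for microglia were plentiful in both groups, with summed levels of 28471 and 39520 CPM of the library in the mild sums and 16767 to 35979 CPM in the Gpnmb+ sums. Fcrls, whose protein was used for the sort, was an exception, with 0.136 and 18.5 CPM in the mild sums and 0 to 55.2 CPM in the Gpnmb+ sums.

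Gpnmb had no count in any of the 3 mild retinas and also none in 8 of the 9 Gpnmb+ retinas. The exception was the left eye of Gpnmb+ animal 5, with 30.9 CPM of the library. The level of Gpnmb thus checks the genotype label in 1 Gpnmb+ animal only. Tyrp1, a pigment cell enzyme, had no count in any retina.

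The groups also differed in reads of the sex chromosomes, which the labels do not mention. Y-linked genes (Ddx3y, Eif2s3y, Kdm5d and Uty together) had 131 and 286 CPM of the library in the mild sums, against 0, 0, 0.592, 0.353 and 212 in Gpnmb+ animals 1 to 5. Xist, the RNA that silences an X chromosome in females, had 0.126 and 0 CPM of the library in the mild sums, against 640.0, 1585, 2515, 1592 and 60.5 CPM in Gpnmb+ animals 1 to 5. Both mild animals and Gpnmb+ animal 5 therefore carried Y-linked reads, and Gpnmb+ animals 1 to 4 carried Xist with almost none. The right eye of Gpnmb+ animal 5 held both kinds, 1744 counts of Xist and 3175 Y-linked counts, while its left eye had 0 and 2944. Grade and sex-linked reads thus largely coincide here, and 6 of the 17 sums in the fit carried Y-linked reads. A fit with a term for Y-linked reads was added after these values were seen. That term is set by the groups that hold both kinds of sum, which are Gpnmb+, moderate and 6-month DBA/2J. Its values are given for the genes and lists named with them below, and sex and group cannot be told apart in the other Gpnmb+ animals.

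Across 15959 genes tested, none differed between mild and Gpnmb+ microglia at an adjusted p under 0.05 in edgeR's quasi-likelihood test, that is 0.0% of genes, and the smallest adjusted p was 0.25. At an unadjusted p under 0.05, 426 genes were higher in mild microglia (2.67% of genes) and 439 lower (2.75%), in all 5.42%. DESeq2 on the same sums called 36 genes higher and 580 lower. Of these, 25 of the higher and 447 of the lower had at most 3 counts in every sum of the lower group, and only 3 and 125 averaged a log2 CPM of 4 or more. The values that follow describe these animals, and no single gene is called as changed by the edgeR test.

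The groups did not overlap upward for 658 genes (4.12%) and downward for 375 (2.35%). With so few sums per group, genes also separate in this way by chance, so a lack of overlap alone marks no gene as changed. C1qa encodes 1 of the chains of C1q, which starts the classical complement cascade. The gene, at chr4:136895917-136898803 (GRCm38), had 4929 and 3607 CPM in the mild sums, against 2661, 2100, 2932, 2605 and 3338 CPM in Gpnmb+ animals 1 to 5. Its log2 fold change was 0.65 ± 0.20 (standard error) with an unadjusted p of 0.00404 and an adjusted p of 0.795. All 3 mild retinas, at 4398, 5223 and 3844 CPM of the library, lay above the highest Gpnmb+ retina at 3602 CPM. C1qb, of the same gene cluster and for the second chain, had 5921 and 3193 CPM in the mild sums, against 3012, 2085, 3053, 2415 and 2985 CPM in the Gpnmb+ sums, a log2 fold change of 0.75 ± 0.25. The mild sum of animal 4 was far above the controls for C1qb and that of animal 5 just above them. C1qc, for the third chain, had 1988 and 1006 CPM in mild sums and 767 to 2886 CPM in Gpnmb+ sums, so that both mild values lay inside the control range. With the Y-linked term the differences were 0.66 for C1qa and 0.84 for C1qb, close to those without it.

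Of 15 complement genes tested, 10 had a positive log2 fold change. At an unadjusted p under 0.05, 5 were higher and none lower, beside 2.67% and 2.75% of all genes. The list's median was 0.49, beside -0.11 over all genes tested, of which 44.2% had a positive value. Without animal 4 that median was 0.00 and without animal 5 it was 0.04, each over 17 genes, beside -0.63 and -0.41 over all genes. The other 3 past that p were C3ar1, the receptor for a C3 fragment, Itgb2, the beta chain of the C3 fragment receptor, and Cfb, a factor of the alternative pathway. C3ar1 had 387 and 686 CPM in the mild sums and 201 to 439 CPM in the Gpnmb+ sums. Itgb2 had 329 and 751 CPM in the mild sums and 143 to 487 CPM in the Gpnmb+ sums. For both, only the sum of animal 5 exceeded every control. Cfb rested on 1 retina, the left eye of animal 4, at 43.4 CPM of the library, with 0 in the other mild retinas. With the Y-linked term 3 of the 15 genes passed the unadjusted p, and the median was 0.18, beside -0.20 over all genes. Both mild sums lay below Gpnmb+ animal 5 for 3 of the 15 genes and above it for 2. Over all genes tested these shares were 34.3% and 17.8%. The summed level of the list was 13391 and 11588 CPM of the library in the mild sums. It was 11953 CPM in Gpnmb+ animal 5, between the mild values, and 6625 to 9019 CPM in Gpnmb+ animals 1 to 4.

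Receptors for antibodies also had positive values. All 7 genes of a list of Fc receptors and their signalling partners had a positive log2 fold change, beside 44.2% of all genes. The list's median was 0.72, and 2 members were higher at an unadjusted p under 0.05, beside 2.67% of all genes. This list is described because of those values. Fcgr1, the high-affinity IgG receptor, had 561 and 374 CPM in the mild sums, against 279, 255, 192, 206 and 317 CPM in the Gpnmb+ sums, a log2 fold change of 0.91 ± 0.33 (adjusted p 0.795). Fcgr3, a low-affinity receptor, had 1140.0 and 551 CPM in mild sums, against 399 to 696 CPM in Gpnmb+ sums. Fcer1g, the signalling chain these receptors share, had 1809 and 663 CPM in mild sums, against 476 to 1106 CPM in Gpnmb+ sums. For Fcgr3 and Fcer1g the 2 mild animals stood apart from each other, with animal 4 above all controls and animal 5 among them. The list's median was 0.82 with the Y-linked term, 0.21 without animal 4 and 1.11 without animal 5. Over all genes these medians were -0.20, -0.63 and -0.41.

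**Figure D1:**
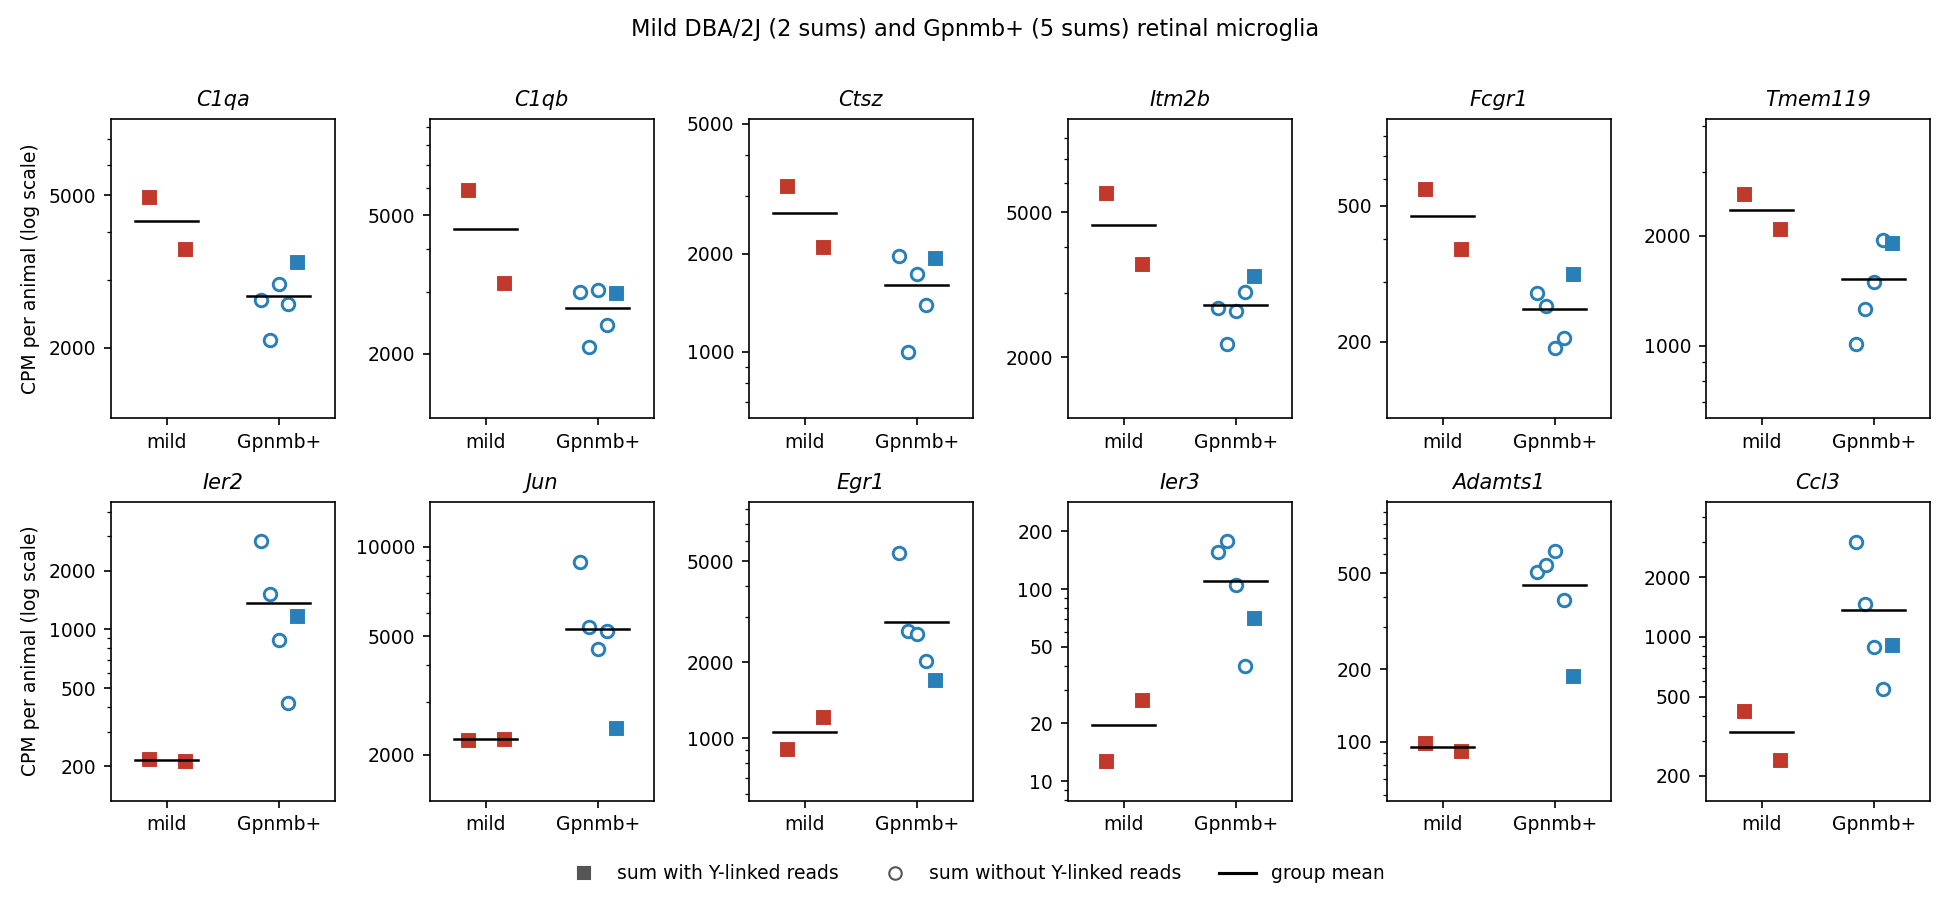
CPM per animal of 12 genes (log axis) in the 2 mild DBA/2J sums, left, and the 5 Gpnmb+ sums, right, with the group mean as a line and filled squares for sums with Y-linked reads. In the upper row both mild sums lie above all Gpnmb+ sums, in the lower row below them. For C1qa, Itm2b and Fcgr1 above, and Jun, Egr1 and Adamts1 below, the Gpnmb+ sum nearest to the mild ones is the one with Y-linked reads.

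Genes of MHC class I, which present peptides to T cells, mostly had positive values. Of 15 tested, 13 had a positive log2 fold change and 1, B2m, passed an unadjusted p of 0.05. Over all genes, 44.2% were positive and 2.67% were higher at that p. The list's median was 0.52, beside -0.11 over all genes, and 0.55 with the Y-linked term, beside -0.20. Without animal 4 it was 0.11, beside -0.63 over all genes. H2-D1, a class I heavy chain, had 1333 and 1184 CPM in the mild sums, against 663, 1030.0, 834, 844 and 1005 CPM in the Gpnmb+ sums, without overlap (unadjusted p 0.0544). B2m, the light chain, had 3908 and 1887 CPM in mild sums, against 2054, 1279, 1801, 1594 and 1874 CPM in Gpnmb+ sums, so that animal 5 lay within the controls. H2-T23, a nonclassical class I molecule, had 643 and 314 CPM in mild sums and 276 to 361 CPM in Gpnmb+ sums. Psmb10, an immunoproteasome subunit, had 184 and 46.0 CPM in mild sums and 18.9 to 86.2 CPM in Gpnmb+ sums. For both, only animal 4 exceeded the controls. MHC class II genes showed no common direction, 3 of 7 positive, beside 44.2% of all genes. Their median was 0.00 and none was past an unadjusted p of 0.05. Cd74, the invariant chain, had 80.6 and 25.3 CPM in the mild sums, against 511 CPM in Gpnmb+ animal 2 and 3.51 to 100.2 CPM in the other Gpnmb+ sums. The class II median was -1.12 without animal 4, beside -0.63 over all genes.

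Lysosomal genes had 30 of 39 positive log2 fold changes, beside 44.2% of all genes, with a median of 0.35. At an unadjusted p under 0.05, 4 were higher (Ctsz, Ctss, Ctsa and Hexa) and 1 lower (Lamp1), beside 2.67% and 2.75% of all genes. Ctsz, a cathepsin, had 3233 and 2092 CPM in the mild sums, against 1969, 1002, 1731, 1396 and 1938 CPM in the Gpnmb+ sums, a log2 fold change of 0.73 ± 0.25 that was 0.72 with the Y-linked term. Ctss, a cathepsin abundant in microglia, had 15823 and 9090 CPM in the mild sums, against 5867 to 9535 CPM in the Gpnmb+ sums, and only animal 4 exceeded them. Ctsa, a protective carboxypeptidase, had 1592 and 1811 CPM in mild sums and 606 to 1459 CPM in Gpnmb+ sums. Hexa, a subunit of beta-hexosaminidase, had 1160 and 903 CPM in mild sums and 636 to 732 CPM in Gpnmb+ sums. Neither of these overlapped between the sums, but for Ctsa single retinas did. The left eye of mild animal 4 had 767 CPM of Ctsa per library, below the Gpnmb+ retina median of 1055 CPM. Lamp1, a lysosomal membrane protein, ran the other way, with 160 and 247 CPM in mild sums and 219 to 627 CPM in Gpnmb+ sums, and its unadjusted p was 0.0722 with the Y-linked term, against 0.0310 without it. The list's median was 0.22 with the term, with 4 higher and 0 lower. Both mild sums lay below Gpnmb+ animal 5 for 10 of the 39 genes (25.6%) and above it for 9 (23.1%), beside 34.3% and 17.8% of all genes tested. The summed level of the list was 57438 and 63405 CPM of the library in the mild sums, against 60268 CPM in that animal and 32624 to 47511 CPM in Gpnmb+ animals 1 to 4.

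The genes that mark MGnD had no common direction. Of 37 tested, 22 had a positive log2 fold change, beside 44.2% of all genes, with a median of 0.45. At an unadjusted p under 0.05, 3 were higher (Ctsz, Axl and B2m) and 3 lower (Clec7a, Ccl3 and Ccl4), beside 2.67% and 2.75% of all genes. The median was -0.31 without animal 4, beside -0.63 over all genes, and 0.19 with the Y-linked term, which left 2 in each direction. Apoe, the lipid carrier that is a hallmark of this state, had 3489.6 and 3783 CPM in the mild sums, against 484, 1881, 1746, 685 and 4891 CPM in the Gpnmb+ sums. Its log2 fold change was 0.91 ± 0.63 (unadjusted p 0.168, adjusted p 0.80), and both mild sums lay above 4 of the 5 controls and below Gpnmb+ animal 5. Axl, a receptor for dying cells, had 106 and 209.8 CPM in mild sums, against 79.9, 38.5, 47.3, 7.43 and 122 CPM in Gpnmb+ sums, with overlap. Its log2 fold change was 1.42 (unadjusted p 0.0386), and 0.84 with the Y-linked term (unadjusted p 0.248). Trem2, the lipid receptor, had 2212 and 1344 CPM in mild sums, against 1301, 1269.9, 1075, 989 and 1448 CPM in Gpnmb+ sums (log2 fold change 0.55 ± 0.27, unadjusted p 0.0593).

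Clec7a, the beta-glucan receptor also called dectin-1, stood on the other side. It had 15.3 and 28.6 CPM in the mild sums, against 159, 142, 148, 184 and 73.6 CPM in the Gpnmb+ sums, with no overlap of the sums. Single retinas did overlap for Clec7a. The right and left eyes of mild animal 4 had 2.26 and 57.4 CPM of the library, and the lowest Gpnmb+ retina had 53.4 CPM. The log2 fold change was -2.68 ± 1.09 (adjusted p 0.795), and -3.65 with the Y-linked term. Other MGnD genes were low or scattered. Spp1, or osteopontin, had 26.7 and 133 CPM in mild sums and 0 to 122 CPM in Gpnmb+ sums. Lgals3, or galectin-3, had 0 and 3.98 CPM in mild sums and 0 to 9.31 CPM in Gpnmb+ sums. Itgax, an integrin chain, had 0.409 and 4.65 CPM in mild sums and 0 to 6.09 CPM in Gpnmb+ sums. Ch25h, an enzyme that makes 25-hydroxycholesterol, had no count in the mild sums and 6.51 CPM in Gpnmb+ animal 5, with none in the other Gpnmb+ sums. Over the whole list the summed level was 30291 and 30259 CPM of the library in the mild sums, against 18158 to 20879 CPM in Gpnmb+ animals 1 to 4 and 30247 CPM in Gpnmb+ animal 5.

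Genes of resting microglia mostly lay near the control level or above it. Of 34 tested, 24 had a positive log2 fold change, beside 44.2% of all genes, with a median of 0.18. At an unadjusted p under 0.05, 2 were higher and 3 lower, beside 2.67% and 2.75% of all genes. Without animal 5 the median was -0.28, beside -0.41 over all genes. It was 0.15 with the Y-linked term, with 1 higher and 0 lower at that p. Tmem119, a surface protein of resting microglia, had 2613 and 2093 CPM in the mild sums, against 1013, 1264, 1500, 1954 and 1909 CPM in the Gpnmb+ sums, a log2 fold change of 0.62 ± 0.28 without overlap of the sums (unadjusted p 0.0370, and 0.0766 with the Y-linked term). Single retinas did overlap for Tmem119. The left eye of mild animal 4 had 835 CPM of the library, below the Gpnmb+ retina median of 1441 CPM. P2ry12, the ADP receptor, had 1846 and 2801 CPM in mild sums, against 2110, 1650, 2158, 3287 and 3099 CPM in Gpnmb+ sums. Olfml3, a secreted protein of microglia and the other of the 2 higher, had 3919 and 1959 CPM in mild sums and 1663 to 2383 CPM in Gpnmb+ sums, so that only animal 4 exceeded the controls. Cx3cr1, the fractalkine receptor, had 2168 and 5838 CPM in mild sums, against 2461 to 4526 CPM in Gpnmb+ sums. Csf1r, the CSF1 receptor, had 3801 and 7536 CPM in mild sums, against 1929.6 to 5933 CPM in Gpnmb+ sums. Sall1, a transcription factor of microglial identity, had 234 and 476 CPM in mild sums, against 199.5 to 560.4 CPM in Gpnmb+ sums. In all 3 genes animal 5 had more than animal 4. The list's 3 genes lower at that p were Jun, Egr1 and Rhob, which also belong to the immediate-early genes described next.

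Immediate-early genes, which cells switch on within minutes of a stimulus or of handling, mostly had negative values. Of 22 tested, 21 had a negative log2 fold change and 1 a positive one, beside 44.2% positive over all genes. The list's median was -1.12. At an unadjusted p under 0.05, 8 were lower and none higher, beside 2.75% and 2.67% of all genes. Ier2, a nuclear regulator at chr8:84661331-84662852, had 218 and 213 CPM in the mild sums, against 2818, 1522, 879, 419 and 1173 CPM in the Gpnmb+ sums. Its log2 fold change was -2.66 ± 0.70 (unadjusted p 0.00118, adjusted p 0.795). Jun, a subunit of the AP-1 factor, had 2241 and 2266 CPM in the mild sums, against 8883, 5357, 4533, 5221 and 2462 CPM in the Gpnmb+ sums, a log2 fold change of -1.23 ± 0.45. Egr1, a zinc finger factor, had 908 and 1218 CPM in mild sums, against 5376, 2655, 2584, 2024 and 1698 CPM in Gpnmb+ sums. Ier3, an early gene tied to cell survival, had 12.7 and 26.4 CPM in mild sums, against 156, 179, 105, 39.7 and 71.0 CPM in Gpnmb+ sums. None of these 4 overlapped between the groups. Fos and Fosb, partners of Jun, did overlap, with 2560.3 and 1683 CPM in mild sums and 1616 to 5611 CPM in Gpnmb+ sums for Fos. Fosb had 211 and 218 CPM in mild sums and 107 to 635 CPM in Gpnmb+ sums. Btg2, an antiproliferative early gene, had 658 and 1182 CPM in mild sums, below the 1297 to 3155 CPM of the Gpnmb+ sums.

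The difference of the list as a whole moved with the sex-linked reads. Jun was at 2462 CPM in Gpnmb+ animal 5, next to the mild values, and its log2 fold change was -0.32 ± 0.34 with the Y-linked term, against -1.23 without it. Egr1 changed likewise, to -0.22 ± 0.39 with the term, against -1.43 without it. Atf3, a stress-induced factor, had 19.1 and 85.7 CPM in mild sums, against 1179, 448, 497 and 239 CPM in Gpnmb+ animals 1 to 4 and 29.4 CPM in animal 5, and its difference was -0.18 with the term, against -3.19 without it. Ier2 and Ier3 kept differences of -2.03 and -2.04 with the term, and Gpnmb+ animal 5 lay above both mild sums for each. For the whole list the median was -0.20 with the term, beside -0.20 over all genes, and 2 members were lower at an unadjusted p under 0.05. Both mild sums lay below Gpnmb+ animal 5 for 9 of the 22 genes (40.9%) and above it for 4 (18.2%). Over all genes tested these shares were 34.3% and 17.8%. Sex-linked reads and group cannot be told apart in Gpnmb+ animals 1 to 4, and the part of handling was not tested.

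**Figure D2:**
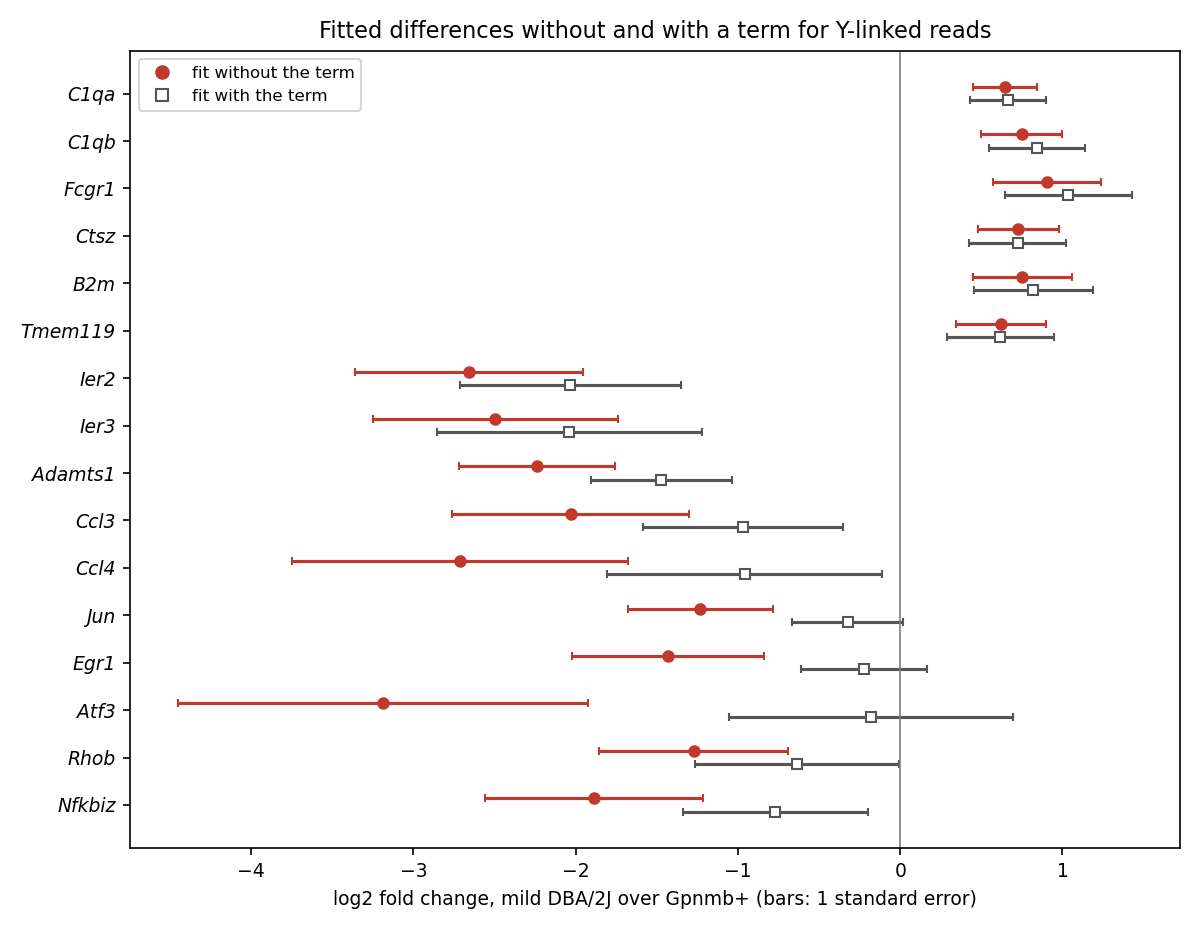
Log2 fold change of mild DBA/2J over Gpnmb+ for 16 genes, with 1 standard error as bars, from the fit without (circles) and with (squares) a term for Y-linked reads. C1qa, C1qb, Fcgr1 and Ctsz, picked from their lists, keep values close to those without the term. Jun, Egr1 and Atf3 lie within 1 standard error of 0 once the term is in the fit.

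Inflammatory genes also mostly had negative values. Of 22 tested, 17 had a negative log2 fold change and 5 a positive one, beside 44.2% positive over all genes. The list's median was -0.94. At an unadjusted p under 0.05, 4 were lower, beside 2.75% of all genes. Ccl3, a chemokine, had 427 and 240 CPM in the mild sums, against 2997, 1469, 893, 549 and 911 CPM in the Gpnmb+ sums, a log2 fold change of -2.03 ± 0.73. Ccl4, a related chemokine, had 137 and 29.0 CPM in mild sums, against 1599, 452, 368, 143 and 163 CPM in Gpnmb+ sums. Nfkbiz, a regulator of NF-kappaB, had 58.9 and 64.3 CPM in mild sums, against 244, 424, 174, 190.1 and 108 CPM in Gpnmb+ sums. Tnf, the cytokine, had 21.7 and 69.1 CPM in mild sums and 67.8 to 235 CPM in Gpnmb+ sums, with a slight overlap. With the Y-linked term no member passed the unadjusted p, and Ccl3 and Ccl4 stood at -0.97 and -0.96. For both chemokines Gpnmb+ animal 5 still lay above both mild sums. Il1b, for interleukin-1 beta, was an exception to the direction, at 17.7 and 57.0 CPM in mild sums and 0 to 16.1 CPM in Gpnmb+ sums.

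Heat shock genes, which respond to protein damage, had 4 of 16 positive log2 fold changes, beside 44.2% of all genes. Their median was -0.55 and no member passed an unadjusted p of 0.05. Dnajb1, a co-chaperone, had 121 and 76.3 CPM in the mild sums, against 63.4 to 458 CPM in the Gpnmb+ sums. Hsp90aa1, a stress-inducible chaperone, had 192 and 143 CPM in the mild sums, against 102 to 804 CPM in the Gpnmb+ sums. For both genes the lowest Gpnmb+ value was that of animal 5. Interferon-induced genes had 8 of 26 positive, a median of -0.71, or -0.96 with the Y-linked term, and none past that p. Ifih1, a sensor of viral RNA, had 1.09 and 13.1 CPM in mild sums and 14.4 to 72.6 CPM in Gpnmb+ sums, without overlap. Ifi27l2a, another interferon-induced gene, had 57.6 and 4.13 CPM in mild sums and 0 to 15.2 CPM in Gpnmb+ sums.

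**Figure D3:**
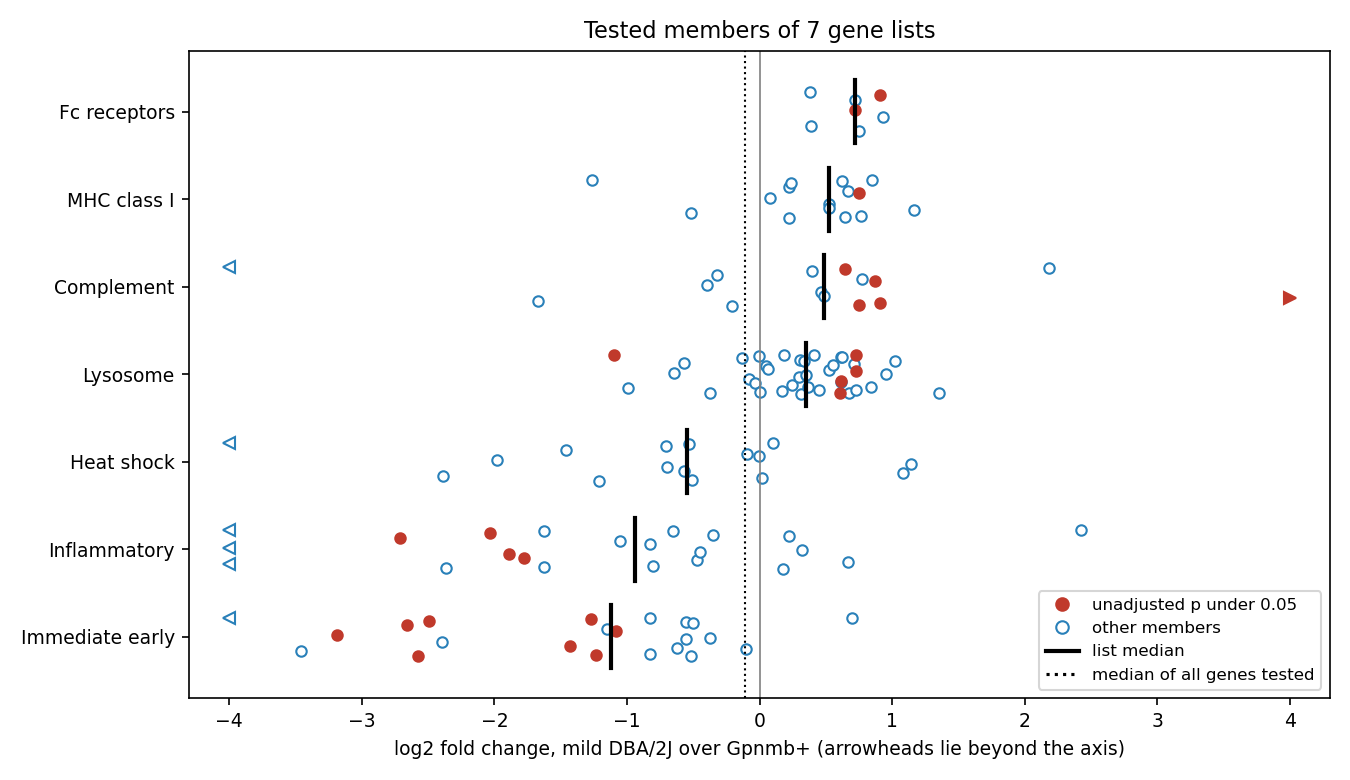
Log2 fold change of mild DBA/2J over Gpnmb+ for each tested member of 7 gene lists, filled where the unadjusted p is under 0.05, with the list median as a bar and the median of all genes tested as a dotted line. Medians run between 0.72 for Fc receptors and -1.12 for immediate-early genes, beside -0.11 for all genes.

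Genes of lipid handling and the liver X receptor, a sensor of sterols, had 16 of 22 positive, beside 44.2% of all genes. Their median was 0.62. At an unadjusted p under 0.05, 2 were higher, beside 2.67% of all genes. The list's median was 0.15 without animal 4 and 0.13 without animal 5, beside -0.63 and -0.41 over all genes. With the Y-linked term it was 0.40, beside -0.20 over all genes, and 1 member was higher and 1 lower at that p. The 2 higher without the term, Apoc2, an apolipoprotein, and Nr1h3, the receptor itself, had no count in any Gpnmb+ sum and at most 6.23 CPM in a mild sum. The summed level of the list was 4914 and 5790.4 CPM of the library in the mild sums and 1073 to 6845 CPM in the Gpnmb+ sums. The list includes Apoe. Genes of oxidative phosphorylation had 22 of 38 positive with a median of 0.17, and cytosolic ribosomal proteins 29 of 38 with a median of 0.27, and neither list had a member past an unadjusted p of 0.05. Both medians depended on animal 4. Without it they were -0.68 and -0.55, beside -0.63 over all genes, and without animal 5 they were 0.55 and 0.69, beside -0.41. Glycolysis genes had 5 of 17 positive and a median of -0.58. Lower at that p were 2, Pfkfb3 and Eno1, named for that reason, beside 2.75% of all genes. Pfkfb3, which makes an activator of glycolysis, had 10.3 and 47.1 CPM in mild sums and 78.3 to 133 CPM in Gpnmb+ sums, without overlap. Eno1, the enolase, had 105 and 35.8 CPM in mild sums and 50 to 444 CPM in Gpnmb+ sums. Proliferation genes had 8 of 22 positive and 3 lower at that p, beside 44.2% and 2.75% of all genes. Those 3 were Mcm2 and Mcm5, of DNA replication, and Ccnb1, the mitotic cyclin B1. Mcm2 and Ccnb1 had no count in the mild sums and Mcm5 had 0 and 2 counts, but each was also at 0 in 1 or more Gpnmb+ sums.

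For several genes of other kinds, every mild retina lay beyond all 5 Gpnmb+ sums, though not always beyond every Gpnmb+ retina. Of the 7005 genes whose log2 CPM averaged 4 or more, 104 (1.48%) had all mild sums and retinas above every Gpnmb+ sum and 128 (1.83%) had them below. Itm2b, a membrane protein that binds amyloid precursor protein, had 5622 and 3592 CPM in the mild sums, against 2734, 2179, 2670, 3017 and 3341 CPM in the Gpnmb+ sums (log2 fold change 0.72 ± 0.24). Ube2j1, an enzyme of protein disposal at the endoplasmic reticulum, had 100.1 and 166 CPM in mild sums and 7.65 to 54.6 CPM in Gpnmb+ sums, but its lowest mild retina, at 62.1 CPM of the library, lay below the highest Gpnmb+ retina, at 124 CPM. Rnf114, a ubiquitin ligase, had 181 and 188 CPM in mild sums and 8.82 to 98.8 CPM in Gpnmb+ sums. Pura, a nucleic acid binding protein, had 268 and 173 CPM in mild sums and at most 105 CPM in Gpnmb+ sums. Jkamp, a membrane protein, had 143 and 146 CPM in mild sums and at most 70.9 CPM in Gpnmb+ sums. The predicted gene Gm44250 had 34.7 and 77.2 CPM in mild sums and at most 9.84 CPM in Gpnmb+ sums. With C1qa, C1qb, Ctsz and Fcgr1 these were the 10 of the 104 genes with the smallest p.

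On the lower side, Adamts1, a secreted metalloprotease, had 98.8 and 91.4 CPM in the mild sums, against 508, 541, 620, 388 and 188 CPM in the Gpnmb+ sums. Its log2 fold change was -2.24 ± 0.48 (adjusted p 0.525), and -1.47 with the Y-linked term. The mild retinas had 87.2 to 108 CPM of Adamts1 per library, and the lowest Gpnmb+ retina had 44.0 CPM. Fbxl4, a mitochondrial F-box protein, had the smallest p of all genes, with 1 and 4 counts in the mild sums (0.136 and 0.30 CPM) and 41.0, 187, 19.3, 62.8 and 24.6 CPM in the Gpnmb+ sums (adjusted p 0.25). Pmpcb, a subunit of the protease that trims imported mitochondrial proteins, had 5 and 0 counts in mild sums and 24.7 to 89.5 CPM in Gpnmb+ sums. Ampd3, an AMP deaminase, had no count in the mild sums and 2.06 to 51.1 CPM in the Gpnmb+ sums. With a floor of 3 counts over the mild group it was at least 194-fold lower than the Gpnmb+ mean, though not than each Gpnmb+ sum. Sinhcaf, a subunit of a histone deacetylase complex, had no count in the mild sums and 9.11 to 150.5 CPM in the Gpnmb+ sums. With the same floor it was at least 487-fold lower than the Gpnmb+ mean. Sinhcaf also had 0 CPM in the moderate and the severe sum of animal 1, and a count in only 6 of the Gpnmb+ retinas. Ap3b1, a vesicle coat subunit, had 42.2 and 38.4 CPM in mild sums and 100.1 to 231 CPM in Gpnmb+ sums. Dusp7, a phosphatase of MAP kinases, had at most 2.45 CPM in mild sums and at least 6.19 CPM in Gpnmb+ sums. Tmc6, a transmembrane channel-like protein, had at most 4.90 CPM in mild sums and at least 25.0 CPM in Gpnmb+ sums. Rnf187, a ubiquitin ligase, had at most 6.67 CPM in mild sums and at least 42.1 CPM in Gpnmb+ sums. With 100 to 600 cells per library, a gene at such a level can be missed in a whole library, and that was not tested here.

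Markers of other cells were set beside these values. Rod photoreceptor genes had 1 of 17 positive, beside 44.2% of all genes, and a median of -1.72. At an unadjusted p under 0.05, 3 were lower, beside 2.75% of all genes. The median was -1.21 with the Y-linked term, and none passed that p. Gnat1, the rod transducin chain, had 72.1 and 73.4 CPM in the mild sums, against 88.2, 1985, 448, 197 and 69.8 CPM in the Gpnmb+ sums. The high values came from Gpnmb+ animal 2, whose summed rod level was 12467 CPM of the library, against 664 and 795 CPM in the mild sums and 467 to 1809.7 CPM in the other Gpnmb+ animals. That animal also had the fewest genes with a count, 3469 and 7134 in its 2 retinas. Without the 5 Gpnmb+ retinas under 10000 genes, which include both eyes of Gpnmb+ animals 1 and 2, the rod median was -0.03 and that of the immediate-early list was -0.57. Of 12 monocyte markers, 8 had no count in the mild sums and 3 none in the Gpnmb+ sums, and the summed level was 758 and 351 CPM against 123 to 553 CPM, mostly Lyz2. Neutrophil, lymphocyte and red cell markers summed to under 1 CPM in each mild sum. Border macrophage markers summed to 78.7 and 204 CPM in mild sums and 7.21 to 221 CPM in Gpnmb+ sums, and their part in the results was not tested.

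The mild sums were also set against the later grades, again with no gene past an adjusted p of 0.05 in edgeR's test (0.0% of 15959 in each comparison). DESeq2 called 498 genes for mild over moderate and 326 for mild over severe. The mild animals are the same 2 in all comparisons, and animal 5 also gives 1 of the 3 moderate sums. Sex-linked reads differed here too, since the moderate sums of animals 1 and 2 had 503 and 1178 CPM of Xist per library and both severe sums 1147 and 1589 CPM, with at most 0.381 CPM of Y-linked reads. The moderate sum of animal 5 had no Xist and 146 CPM of Y-linked reads. Apoe had 3489.6 and 3783 CPM in mild sums, against 37542, 13827 and 7654 CPM in moderate sums and 16916 and 8134 CPM in severe sums. All moderate and severe values lay above both mild ones. The log2 fold change of mild over moderate was -2.44 ± 0.79 (unadjusted p 0.00618, adjusted p 0.772), and -2.67 with the Y-linked term. That of mild over severe was -1.78 ± 0.81 (unadjusted p 0.0401, adjusted p 1.00), and -2.05 with the term. Within animal 5, whose eyes differ in grade, Apoe was 3783 CPM in the mild eye and 7654 CPM in the moderate eye. The 2 eyes of animal 4, both graded mild, also differed, with 2367 and 6410 CPM of Apoe per library. A gap between 2 eyes therefore need not follow grade.

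At an unadjusted p under 0.05, 437 genes were higher in mild than in moderate sums (2.74%) and 393 lower (2.46%). Of the 34 resting genes, 9 were higher and 0 lower, with a median of 0.56, beside -0.06 over all genes. P2ry12 had 1846 and 2801 CPM in mild sums, against 1091, 1921 and 849 CPM in moderate sums (log2 fold change 0.85 ± 0.32, unadjusted p 0.0152), with the mild sum of animal 4 within the moderate range. Sall1 had 234 and 476 CPM in mild sums, against 114, 218 and 81.2 CPM in moderate sums, without overlap (1.37 ± 0.50). With the Y-linked term the differences were 0.77 for P2ry12 and 1.39 for Sall1. Within animal 5 the mild eye had more P2ry12 and Sall1 than the moderate eye. The right and left eyes of animal 4, both mild, had 1951 and 852 CPM of P2ry12 per library, and 217 and 219 CPM of Sall1.

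Among the immediate-early genes, 5 of 22 were higher and 1 lower in mild than in moderate sums at that p. Over all genes these shares were 2.74% and 2.46%. The list's median was 0.79. Fos had 2560.3 and 1683 CPM in mild sums, against 1268, 1226 and 522 CPM in moderate sums, without overlap. Its log2 fold change of mild over moderate was 1.08 ± 0.48, and 1.67 with the Y-linked term. Ier2 had 218 and 213 CPM in mild sums, against 170, 382 and 290 CPM in moderate sums, which span both mild values. Of the MGnD genes, 0 were higher and 3 lower, with a median of -0.51. For ribosomal proteins the median was -0.68 with 3 of 38 lower, and for oxidative phosphorylation -0.63 with 3 of 38 lower. Glycolysis genes had a median of -1.07, with 1 of 17 higher and 5 lower.

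The 4 genes with the smallest p on the higher side against the moderate grade were Bcl9, Phlpp2, Blnk and Msh5. Blnk, an adaptor of immune receptor signalling, had 505 and 336 CPM in mild sums, against 165, 191 and 96.8 CPM in moderate sums. Bcl9, a cofactor of beta-catenin, had 47.7 and 54.3 CPM in mild sums, against 8.91, 9.07 and 7.98 CPM in moderate sums. Phlpp2, a phosphatase that acts on AKT, had 43.2 and 48.3 CPM in mild sums, against 0.228, 0 and 0.180 CPM in moderate sums. Msh5, a meiotic homologue of mismatch repair proteins, had 104 and 240.1 CPM in mild sums, against 40.0, 39.1 and 45.4 CPM in moderate sums. The grades did not overlap for these 4, as for 8.62% of all genes on the higher side. None of the 4 lay outside the Gpnmb+ range in both mild sums except Phlpp2, which had no count in the left eye of mild animal 4. C1qa and Fcgr1 had log2 fold changes of mild over moderate of -0.07 ± 0.22 and -0.34 ± 0.38.

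Against the severe grade, 124 genes were higher (0.777%) and 321 lower (2.01%) in mild sums at an unadjusted p under 0.05. None of the 34 resting genes passed that p in either direction, and their median was -0.19, beside 0.00 over all genes. P2ry12 had 1846 and 2801 CPM in mild sums, against 3255 and 2788 CPM in the severe sums. Ccdc102a, Dennd2c and Dpp9, which were among the 4 genes with the smallest p on the higher side, had 3.52 CPM or less in both severe sums. Dpp9, a dipeptidyl peptidase, had 34.6 and 65.9 CPM in mild sums, against 1.43 and 3.52 CPM in severe sums. On the lower side Fbxl4, Pmpcb and Ampd3 were among the 4 genes with the smallest p against moderate and severe sums as against Gpnmb+ sums, comparisons that share the mild animals. Fbxl4 had 16.7, 13.7 and 32.7 CPM in the moderate sums and 51.6 and 13.1 CPM in the severe sums, beside 0.136 and 0.30 CPM in the mild sums. The other of the 4 against the moderate grade was Lbr, the lamin B receptor, with no count in the mild sums and 11.2 to 59.3 CPM in the moderate sums. Against the severe grade it was Dgat1, an enzyme of fat synthesis, with no count in the mild sums and 27.5 and 51.6 CPM in the severe sums.

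**Figure D4:**
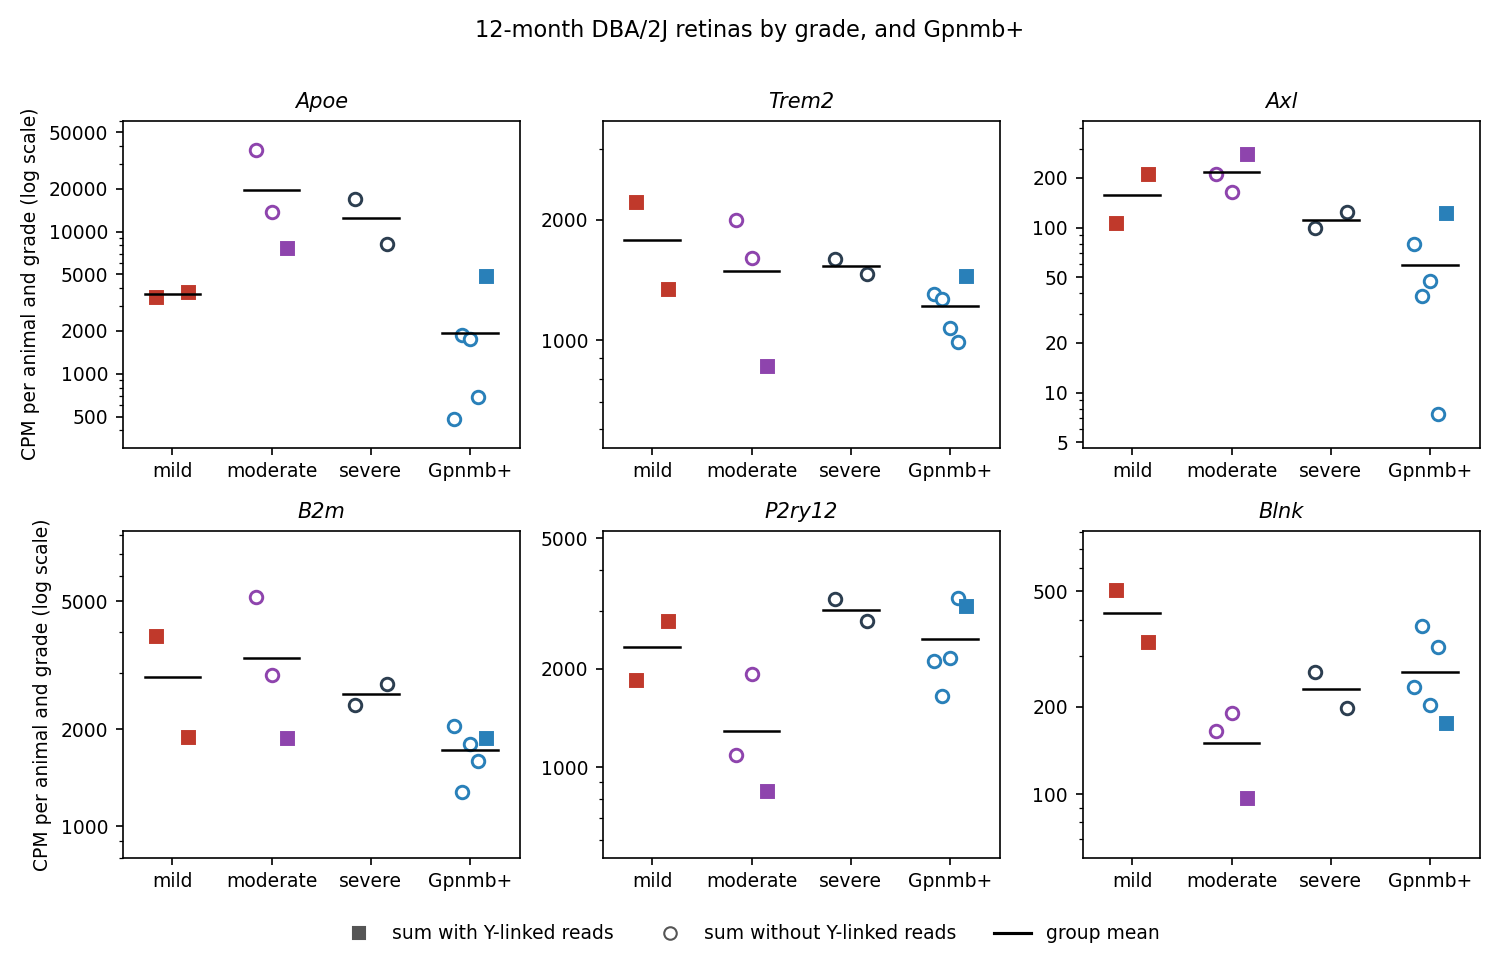
CPM per animal and grade (log axis) of 6 genes in the mild (2), moderate (3) and severe (2) sums of 12-month DBA/2J and in the 5 Gpnmb+ sums, with the group mean as a line and filled squares for sums with Y-linked reads. Apoe is 3489.6 and 3783 CPM in the mild sums, below every moderate and severe sum, and Blnk in the mild sums lies above every moderate and severe sum.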

How the data were processed

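RNA was sequenced from microglia sorted from single retinas, and the values used are expected counts per gene, deposited by the authors and named so per the file headers. Per the submitters' processing notes, the build was mm10 and the tools included Salmon 1.4.0, R 4.0.3 and DESeq2 1.30.1. Of 47729 gene IDs, 47224 had a symbol in the GRCm38 annotation. The 24 columns of a separate FPKM table were not used. Counts were rounded, the eyes of an animal with 1 grade were summed, and 17 sums were fitted together in R 4.3.3 with edgeR 4.0.16 (quasi-likelihood test, TMM scaling, filterByExpr at 10 counts and a total of 15, Benjamini-Hochberg adjusted p under 0.05) and limma 3.58.1. DESeq2 1.42.0 was an alternative. Gene CPM per sum are TMM-scaled, while CPM of retinas and of summed lists are per library total. Floors are 3 counts and cover counting error only. Scripts were checked on simulated data.

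Named genes were a fixed set of microglial genes, up to 4 members with the smallest p in each list described, 10 genes per direction for which every mild sum and retina lay beyond all Gpnmb+ sums, and 4 per direction against each later grade. Some genes the rule picks are not reported here. It gave 92 of the 106 named, while 14, and the other genes given with values, were picked with their values in view. The 34 lists had 617 entries, of which 615 were found. The members and lists were chosen with earlier results of these data known, and the Y-linked term was chosen after seeing the data. The labels give neither sex nor batch. Libraries were compared in 58 pairs. Chi-square divided by its degrees of freedom reached 103 at the least, and identical values made up 1.13% at the most, so no library was treated as a duplicate.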

Additional observations from a re-analysis of the deposited data

Results flagged for a closer look

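Values of 1 Gpnmb+ animal stood far from the other 4 in 23 of 129 groups tested (16 genes and 7 lists), by the gap to the nearest animal relative to the whole range. Chance flags about 1 in 20 groups where values are normally distributed, and genes of 1 list are not independent. A lone value above zeros is always flagged, as for Cfb and Ch25h, so the number flagged cannot be read as an excess.

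In Gpnmb+ animal 2 the rod genes Gnat1, Sag and Rom1 stood at 1985, 881 and 649.6 CPM and the rod list at 12467 CPM. The same animal was apart in Cd74 (511 CPM), H2-Ab1 (807 CPM) and the MHC class II list (2817 CPM). It was also apart in Fbxl4 (187 CPM), Pltp (83.3 CPM), the endothelium and pericyte list (116 CPM) and the red cell list (11.7 CPM).

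In Gpnmb+ animal 5 the Y-linked genes Ddx3y, Eif2s3y, Kdm5d and Uty stood at 49.9, 100.9, 26.7 and 23.8 CPM. That animal was also apart in Ch25h (6.51 CPM), the MGnD list (30247 CPM) and the neutrophil list (2.29 CPM). Gpnmb+ animal 1 was apart in Ccl4 (1599 CPM) and Egr1 (5376 CPM). Gpnmb+ animal 3 was apart in Cfb (0.0595 CPM). Gpnmb+ animal 4 was apart in Cryab (25.1 CPM) and the lymphocyte list (1.97 CPM). The part of these animals in the comparisons was not tested beyond leaving each out.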

How the results depend on the processing

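Over all genes, edgeR called 0 genes in each comparison, and the count moved as follows. For mild over Gpnmb+ it was 616 with DESeq2, 31 without a filter, 3 with a random animal effect (Ampd3, CT010467.1 and Cst3), 2 with the larger retina of each animal (Ppa2 and Trit1), and 0 to 2 with 1 animal left out (Emc8 and Tmc6 without mild animal 4). For mild over moderate it was 498, 15 and 1 (Cst3) under the first 3, and 0 to 3 with 1 animal left out (Emc8, Tmc6 and Smdt1 without mild animal 4, Gpr34 without moderate animal 2). For mild over severe it was 326, 5 (Apoe, Eif2s3y, Rom1, Tsix and Xist) and 1 (Cst3), 1 with only the groups compared (Xist), and 0 to 0 with 1 animal left out. The cause was not tested. The replicate block gave 0 calls in each, and 381 genes at an unadjusted p under 0.05 for mild over Gpnmb+, against 865. Same-numbered animals had correlations of -0.0112 and -0.0191, so the numbers were not taken to pair the samples.

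Of 2153 values of named genes under alternatives, 2052 kept direction and side of the threshold, 57 newly passed it and 44 reversed, in 24 of 110 results. No gene passed the adjusted threshold in the main fit, so none could lose it. A difference that shrank without a change of sign, as for Jun with the Y-linked term, counts as kept. The number kept is thus no measure of stability. Of 634 list medians 75 moved beyond the spread. The median over all genes was -0.11, but 0.54 with the random animal effect. The log2 fold changes that reversed were as follows. With the Y-linked term, Spp1 was -0.25, Kdm5d -0.85, Uty -0.76, Fos 0.07 and Fosb 0.01. With the random animal effect, Itgax was 0.06, Cd74 1.03 and H2-Ab1 0.29. Without retinas under 10000 genes, Itgax was 0.31, Cx3cr1 -0.09, Csf1r -0.10, Cd74 0.05 and H2-Ab1 0.55. With the replicate block, Itgax was 1.83, Cx3cr1 -0.02, Cd74 0.84 and H2-Ab1 0.06. With the larger retina, Cfb was -1.63 and Atp5j -0.07. Without retinas under 20% of the median total, P2ry12 was 0.04 and Cfb -1.37.

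With 1 animal left out, reversals came without mild animal 4 for Lgals3 (-8.72 to 0.17), Itgax (-3.04 to 0.45), P2ry12 (-0.46 to 0.16), Cfb (-1.40 to 9.23), Psmb10 (-0.19 to 1.80), H2-DMa (-0.04 to 0.95), Ifi27l2a (-0.93 to 2.85), Atp5j (-0.67 to 1.79), Rpl24 (-0.21 to 1.3), Rpl18 (-0.23 to 1.00) and Fcer1g (-0.20 to 1.23). They came without mild animal 5 for Spp1 (-0.52 to 2.32), Cx3cr1 (-0.74 to 0.70), Csf1r (-0.31 to 0.70), Sall1 (-0.52 to 0.51), Apoc2 (0.00 to 9.57) and C1qc (-0.92 to 0.04). They came without Gpnmb+ animal 2 for Cd74 (-2.55 to 0.05) and H2-Ab1 (-1.38 to 0.35), and without Gpnmb+ animal 5 for Ch25h (-7.69 to 0.00). P2ry12 also reversed without Gpnmb+ animals 4 and 5, at 0.04 and 0.01, and Sall1 without Gpnmb+ animal 4, at -0.00. A lone mild animal is assumed to vary like the other groups. With 2 mild animals and libraries of few cells, differences in genes of low count are limited by depth.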
